A study of Mus musculus with 17 samples.

Results

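Pan-leukocyte genes are transcribed in most white blood cells and in few other cells, so that their RNA in a whole tissue is used as a measure of the leukocytes it holds. The 10 genes described here were taken from a fixed list, *Ptprc*, *Laptm5*, *Arhgap45*, *Coro1a*, *Cyp4f18*, *Sirpb1a*, *Lcp1*, *Cd53*, *Vav1* and *Ikzf1*, by matching the Ensembl gene identifiers of the single-library values to symbols, and all 10 of 10 were found among 55401 genes. The list was drawn up with the U9-KO against WT values of each sex in view. The members' values, fitted log2 fold changes and SEs in these contrasts are therefore given as a description. For the members no p-value of these contrasts is given, and calls are counted over the whole table of genes. The values come from RNA-seq of whole pWAT, perigonadal white adipose tissue, which is visceral fat around the gonads. The mice were C57BL/6J littermates from crosses of heterozygous parents, either WT or homozygous for a germline deletion of all 5 exons of the lncRNA *U90926* (U9-KO), and all ate standard chow. There were 5 WT females, 5 U9-KO females, 3 WT males and 4 U9-KO males, and a library was made from each mouse. The mice were 16 weeks old at collection according to the methods, whereas another part of the paper gives a later age. The deletion was carried by all cells of the mouse and was not limited to leukocytes or fat.

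CD45, the product of *Ptprc*, is the surface phosphatase by which leukocytes are usually recognised and sorted, and it sets the activity of Src-family kinases below antigen and adhesion receptors. Fat always holds leukocytes, of which tissue-resident macrophages are the most numerous in lean animals, beside smaller numbers of B cells, T cells, dendritic cells, mast cells and innate lymphoid cells. The products of the other members act at different places in leukocytes, and those of *Cyp4f18* and *Sirpb1a* are described here for myeloid cells only. CD53 is a tetraspanin and SIRPB1A a paired receptor of the cell surface, LAPTM5 is a lysosomal membrane protein, VAV1 and ARHGAP45 are signalling proteins of the cytoplasm, coronin-1A and L-plastin (*Lcp1*) bind actin, IKAROS (*Ikzf1*) is a transcription factor of blood cells, and CYP4F18 oxidises leukotriene B4 in myeloid cells.

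The members lie on 9 chromosomes of GRCm38, and only *Sirpb1a* and *Cd53* share one. *Ptprc* (ENSMUSG00000026395) is at chr1:138062861-138175708 on the minus strand, *Laptm5* (ENSMUSG00000028581) at chr4:130913125-130936141 on the plus strand and *Sirpb1a* (ENSMUSG00000095788) at chr3:15371653-15426520 on the minus strand. Annotated exons of *Coro1a* overlap those of *Bola2* on the other strand, exons of *Cyp4f18* those of *Zfp961*, and exons of *Lcp1* those of *Gm15628* and *Gm15629*. The library kit kept strand, but whether the counting used it is not given in the sources used here, so values of these 3 members could include reads of the opposite gene. *Sirpb1a* has near copies. Its longest coding transcript of 1499 bases differs from a transcript of the same length of *Sirpb1b* at 34 bases and from that of *Sirpb1c* at 34 bases (97.7% identity without gaps each). Of its windows of 150 bases, 12.1% occur unchanged in transcripts of those copies, and its values are therefore less certain than those of the other 9 members, for which 0 such windows were found in other genes.

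All 10 members were matched to RefSeq promoter windows of GRCm38.p6, each 300 bases long and reaching from 250 bases before the start site to 50 bases from it, with 16 windows in all. They were searched on both strands for AGGAAGT, a form of the binding core of PU.1, an ETS factor of myeloid and B cells. It was present in 4 of the 10 members (5 of their 16 windows) and in 10.7% of 27025 genes with a window (9.35% of 32851 windows). A matching window of each of these 4 members is shown 5′ to 3′ on the strand of the gene, with AGGAAGT or its reverse complement ACTTCCT in capitals.
Ptprc: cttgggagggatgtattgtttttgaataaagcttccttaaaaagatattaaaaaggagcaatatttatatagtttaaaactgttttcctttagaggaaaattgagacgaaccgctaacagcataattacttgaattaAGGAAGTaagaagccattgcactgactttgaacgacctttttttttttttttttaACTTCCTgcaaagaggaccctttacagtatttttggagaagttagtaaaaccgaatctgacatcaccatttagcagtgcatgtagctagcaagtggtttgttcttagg
Cd53: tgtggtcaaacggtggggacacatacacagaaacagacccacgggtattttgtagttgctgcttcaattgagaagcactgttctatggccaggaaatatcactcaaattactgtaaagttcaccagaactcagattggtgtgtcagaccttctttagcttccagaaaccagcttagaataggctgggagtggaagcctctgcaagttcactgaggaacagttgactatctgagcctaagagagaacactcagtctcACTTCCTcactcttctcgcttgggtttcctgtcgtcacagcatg
Sirpb1a: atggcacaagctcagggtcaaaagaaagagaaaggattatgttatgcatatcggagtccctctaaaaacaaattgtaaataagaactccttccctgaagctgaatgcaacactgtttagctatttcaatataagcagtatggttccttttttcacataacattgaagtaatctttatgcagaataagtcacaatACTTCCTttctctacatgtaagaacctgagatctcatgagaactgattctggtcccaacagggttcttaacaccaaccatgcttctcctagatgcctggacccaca
Vav1: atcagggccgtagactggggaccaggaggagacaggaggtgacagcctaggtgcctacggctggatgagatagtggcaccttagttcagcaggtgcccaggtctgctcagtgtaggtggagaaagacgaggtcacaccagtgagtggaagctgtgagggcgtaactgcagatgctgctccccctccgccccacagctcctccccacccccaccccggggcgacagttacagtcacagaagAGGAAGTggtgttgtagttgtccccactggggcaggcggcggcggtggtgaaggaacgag
The *Ptprc* window shown, chr1:138175256-138175555 on the minus strand, holds AGGAAGT 113 bases before the start site and ACTTCCT 58 bases before it. An overlapping *Ptprc* window, chr1:138175077-138175376, is not shown and holds the same ACTTCCT 237 bases before its own start site. The *Cd53* window, chr3:106790100-106790399 on the minus strand, holds its match just after the start site, and the *Sirpb1a* window, chr3:15426378-15426677 on the minus strand, has it 56 bases upstream. In *Vav1*, chr17:57278850-57279149 on the plus strand, the match begins 10 bases upstream. The shorter core GAGGAA, which overlaps AGGAAGT where a G precedes it, was present for 6 members (31.3% of genes), TGTGGT, a RUNX core, for 2 (18.9%), TGGGAA, an IKAROS-type core, for 2 (28.3%), CCGGAAG, a general ETS core, for 0 (9.93%) and TATAAA for 2 (15.7%). These are matches of letters in the reference, and no binding was measured.

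The deposited values are read counts divided by the authors by a size factor per library, called normalized counts here. Their sum per mouse was between 20243688 and 28620744, and the number of reads behind it is unknown. *U90926* had a value of 1 in WT female 3 and WT male 2 and was listed at 0 in the other 15 mice, so it does not check the genotype labels. Adipocyte genes were abundant, with *Adipoq* between 27618 and 72328. Of the markers of other cells, those of ovary and oviduct summed to between 4631 and 38558 in 8 females, but to 126888 in WT female 4 and 140986 in U9-KO female 1. Macrophage genes summed to 45546 in WT male 2 and to between 23628 and 31351 in the other 6 males. WT male 2 also had the lowest adipocyte sum of the males, 633933 against 798091 to 962509. Its sum of lymph node stroma genes was the highest of the males, 5350 against 1820 to 3267. The part of this makeup in the members' values was not tested. Of the monocyte and neutrophil genes, *Ly6g* was at 0 in 16 of 17 mice, while *Mmp9* was between 389 and 928 in females and 348 and 1329 in males. Of the T cell genes, *Cd3e* was between 10 and 39 in females and 15 and 51 in males, and *Trac* between 81 and 428 and between 7 and 66. Values without WT male 2 and without both ovary-rich libraries are given beside the medians of the members and of most lists.

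In males, all 10 pan-leukocyte genes had lower values in U9-KO than in WT pWAT, with a median log2 fold change of -0.50, and in 7 of the 10 no U9-KO male reached the lowest WT male, as for 3.8% of all genes tested. In females the same genes were divided, with 6 higher and 4 lower and a median of 0.04, a balance that single mice turned, since without WT female 4 there were 2 higher and without WT female 1 there were 9. *Sirpb1a* was the exception in females, where each U9-KO mouse exceeded each WT mouse. Over the whole table, limma's test on log2(normalized count + 1) with Benjamini-Hochberg adjustment called 0 of 24825 genes in females (0%) and 0 of 21930 genes in males (0%), where 553 and 1667 genes had an unadjusted p under 0.05. Since RNA was taken from whole fat, fewer leukocytes and less RNA per leukocyte cannot be told apart.

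**Figure D1:**
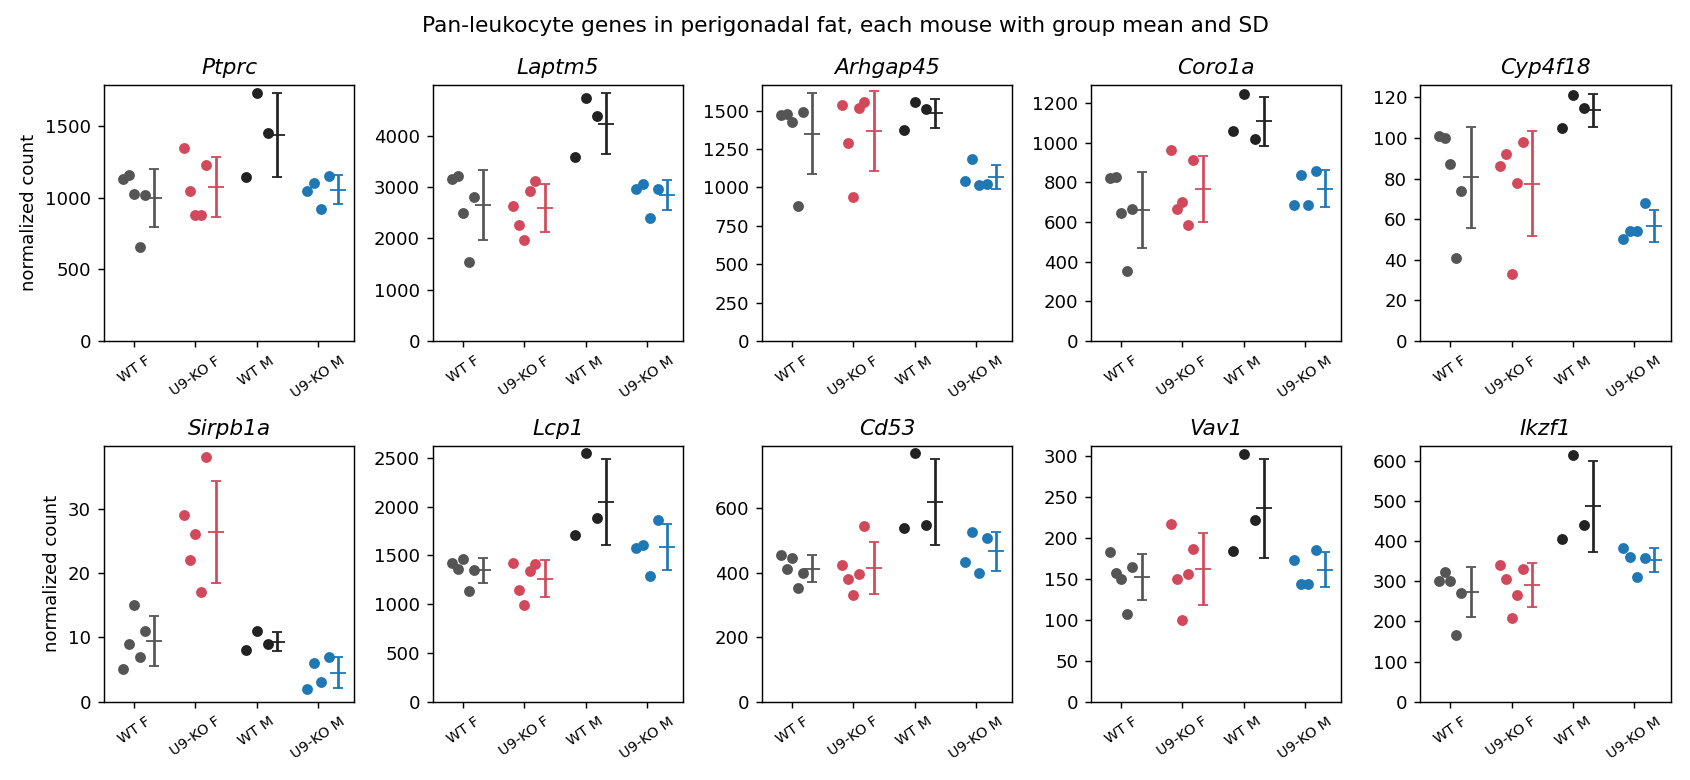
Normalized count (vertical axes, linear, from 0) of each pan-leukocyte gene in WT and U9-KO females (F) and males (M). Each point is a mouse, and the bar beside it is the group mean with SD. In 7 panels the 4 U9-KO males lie below the 3 WT males, and in the *Sirpb1a* panel the 5 U9-KO females, between 17 and 38, lie above the 5 WT females, between 5 and 15.

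*Ptprc* had normalized counts of 1131, 1156, 1025, 654 and 1020 in WT females 1 to 5 and of 1350, 1050, 881, 878 and 1228 in U9-KO females 1 to 5. The groups overlapped, and the log2 fold change of U9-KO over WT was 0.12 (SE 0.17). In males the *Ptprc* values were 1143, 1729 and 1450 in WT and 1046, 1103, 919 and 1152 in U9-KO mice. WT males 2 and 3 were the highest, while WT male 1 lay just below the highest U9-KO male. The log2 fold change of *Ptprc* in males was -0.43 (SE 0.13), and -0.29 without WT male 2.

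*Cd53*, the tetraspanin, was measured at 455, 411, 445, 351 and 400 in WT and at 423, 380, 329, 396 and 543 in U9-KO females, where the log2 fold change was -0.01 (SE 0.13). In WT males it was 537, 771 and 546, and in U9-KO males 432, 526, 400 and 507. The male groups did not overlap, although WT male 1 and U9-KO male 2 were close. The log2 fold change of *Cd53* in males was -0.39 (SE 0.15), and -0.22 without WT male 2.

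*Sirpb1a*, whose product signals through an adaptor in myeloid cells, was the least abundant member. It had values of 5, 9, 15, 7 and 11 in WT females and 29, 22, 26, 17 and 38 in U9-KO females. In males the order was the opposite, with 8, 11 and 9 in WT and 2, 6, 3 and 7 in U9-KO mice. The log2 fold change of *Sirpb1a* was 1.43 (SE 0.34) in females and -1.01 (SE 0.47) in males, on a scale that understates changes of such low values. Its near copies did not show the same separation, though *Sirpb1b* leaned the same way in both sexes. *Sirpb1b* was 3, 6, 16, 15 and 15 in WT and 18, 14, 37, 20 and 20 in U9-KO females, where only U9-KO female 2 lay within the WT range. *Sirpb1c* ranged from 12 to 34 in WT and from 18 to 52 in U9-KO females, so that both copies overlapped between the genotypes. In males *Sirpb1b* was 13, 19 and 26 in WT and 14, 7, 3 and 13 in U9-KO mice, and *Sirpb1c* was 29, 34 and 39 against 32, 12, 14 and 21. Plasma cell genes also had higher values in U9-KO females, with 9 of 10 higher and a median log2 fold change of 1.14 (0.79 without the ovary-rich libraries). Of the monocyte and neutrophil genes 8 of 11 were higher there (median 0.16, and 0.10 without those libraries), and of the macrophage genes 1 of 16 (median -0.15). The part of these cells in the *Sirpb1a* difference was not tested.

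*Laptm5*, which sends immune receptors to the lysosome for breakdown, was the most abundant member. It had values of 3166, 3221, 2493, 1543 and 2817 in WT and 2640, 2265, 1978, 2921 and 3126 in U9-KO females. In females this came to a log2 fold change of -0.01 (SE 0.20). In WT males it was 3587, 4740 and 4393, and in U9-KO males 2961, 3058, 2405 and 2963. Each WT male was above each U9-KO male, and the log2 fold change of *Laptm5* was -0.57 (SE 0.12).

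*Arhgap45*, whose product carries the minor histocompatibility antigen HA-1 in humans, was between 1425 and 1490 in 4 WT females and 879 in WT female 4. U9-KO females had 1536, 1291, 940, 1518 and 1556, and the log2 fold change was 0.02 (SE 0.18). In males it was 1376, 1558 and 1512 in WT and 1041, 1187, 1018 and 1025 in U9-KO mice. These male groups were clearly apart, with a log2 fold change of -0.47 and the smallest SE of any member (0.08).

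*Coro1a*, needed for naive T cells to persist and for actin turnover in most leukocytes, had 821, 828, 643, 354 and 663 in WT females and 964, 668, 699, 584 and 915 in U9-KO females. For females this was a log2 fold change of 0.25 (SE 0.23). In males the values were 1057, 1247 and 1018 in WT and 685, 839, 687 and 858 in U9-KO mice, again without overlap, and the log2 fold change of *Coro1a* was -0.53 (SE 0.11). *Lcp1*, the actin bundler L-plastin, ranged from 1137 to 1462 in WT (median 1362) and from 987 to 1422 in U9-KO females (median 1339). In males *Lcp1* was 1714, 2548 and 1889 in WT and 1575, 1609, 1291 and 1865 in U9-KO mice, and U9-KO male 4 lay between the WT values. The log2 fold change of *Lcp1* in males, -0.36 (SE 0.15), was the smallest of the members and was -0.20 without WT male 2.

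*Vav1*, which acts below antigen receptors, had 182, 157, 150, 107 and 164 in WT and 217, 150, 100, 156 and 186 in U9-KO females (log2 fold change 0.07, SE 0.21). In males it was 184, 302 and 221 in WT and 173, 143, 143 and 185 in U9-KO mice, so U9-KO male 4 was level with WT male 1. The log2 fold change of *Vav1* in males was -0.53 (SE 0.18), and -0.33 without WT male 2. *Ikzf1*, required for lymphoid development, ranged from 166 to 324 in WT and from 209 to 342 in U9-KO females. In males *Ikzf1* was 405, 616 and 441 in WT and 384, 362, 311 and 358 in U9-KO mice. All U9-KO males were below all WT males, with a log2 fold change of -0.44 (SE 0.15), and of -0.26 without WT male 2.

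*Cyp4f18*, the enzyme that inactivates leukotriene B4, had the largest difference in males beside *Sirpb1a*. It was 105, 121 and 115 in WT and 50, 54, 54 and 68 in U9-KO males, a 0.50-fold level (SE 0.17 on the log2 scale). In females it was 101, 100, 87, 41 and 74 in WT and 86, 92, 33, 78 and 98 in U9-KO mice, with a log2 fold change of -0.08 (SE 0.33). WT female 4 and U9-KO female 3 were the low mice in both female groups, and the other 8 were between 74 and 101.

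Across all genes, U9-KO males lay below WT males without overlap for 3.8% of genes tested and above them for 3.8%, against 7 and 0 of the 10 members. In females the shares were 0.169% above and 0.0685% below, against *Sirpb1a* alone and 0 members. As the members were chosen on these contrasts, nothing is read from these counts. Without WT male 2, the male with the highest value of each member, all 10 were still lower in U9-KO males, with a median log2 fold change of -0.38. Without the 2 ovary-rich libraries, 9 of 10 members were lower in U9-KO females, with a median of -0.15. With single females left out, the median ran from -0.06 without WT female 4 to 0.19 without U9-KO female 3, and the members higher from 2 to 9.

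**Figure D2:**
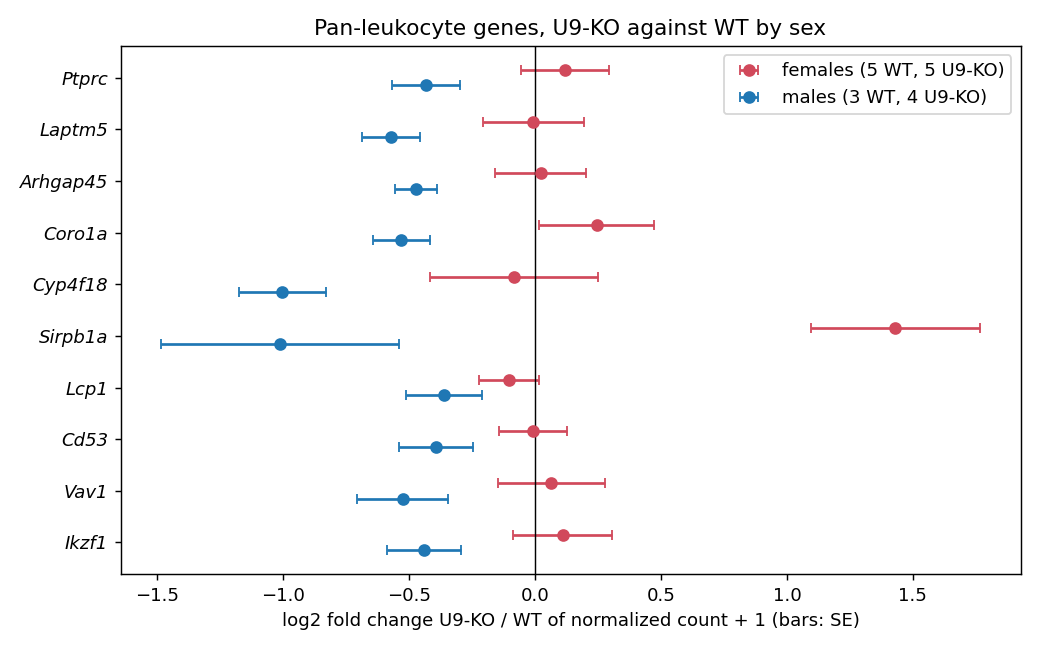
Log2 fold change of U9-KO over WT of the normalized count plus 1 (horizontal axis) for each pan-leukocyte gene, in females (red, 5 against 5 mice) and males (blue, 3 against 4 mice), with bars of 1 SE. All 10 male values lie left of 0, from -1.01 to -0.36, and the female values lie around 0 except for *Sirpb1a* at 1.43.

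The genotype difference was lower in males than in females for all 10 members, with a median of -0.56 for the male minus the female log2 fold change. For *Sirpb1a* it was -2.44 (SE 0.55), for *Cyp4f18* -0.92 (SE 0.44) and for *Coro1a* -0.78 (SE 0.30). The smallest was that of *Lcp1*, -0.26 (SE 0.20). Limma's interaction of sex and genotype over all 17 mice called 0 of 26289 genes (0%; 910 at an unadjusted p under 0.05). The members' values are made of the same contrasts on which the genes were chosen.

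Per kilobase of the longest coding transcript, *Laptm5* had the highest level in WT females, 1018 ± 263 normalized counts (SD, n = 5). *Coro1a* followed at 379 ± 110, *Lcp1* at 351 ± 32.6 and *Arhgap45* at 342 ± 66.9, and these 3 did not differ beyond their spread. *Cd53* had 237 ± 23.7 and *Ptprc* 197 ± 39.7 per kilobase, which were likewise within their spread of each other. *Ikzf1* (52.8 ± 12.1), *Vav1* (51.3 ± 9.39) and *Cyp4f18* (47.4 ± 14.5) formed a lower set, and *Sirpb1a* was last at 6.27 ± 2.57. The order of the 10 means was the same in WT males, from 1631 ± 228 per kilobase for *Laptm5* to 6.23 ± 1.02 for *Sirpb1a* (SD, n = 3).

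Within a sex, most members went up and down together from mouse to mouse, with *Sirpb1a* following least in females. There, WT female 4 was the lowest mouse for 5 members and U9-KO female 3 for 4, while U9-KO female 1 was the highest for 4 and U9-KO female 5 for 3. In males, WT male 2 was the highest for all 10 and U9-KO male 3 the lowest for 6. The coefficient of variation over the 10 females was lowest for *Lcp1* (12.1%) and highest for *Sirpb1a* (59.8%), with a median of 20.5% over the members, and over the 7 males the median was 23.4%. From the lowest to the highest female, *Ptprc* spanned 2.06-fold, *Laptm5* 2.09-fold and *Coro1a* 2.72-fold. The low female mice differed in what else they held, since WT female 4 was rich in ovary transcripts and U9-KO female 3 was not, with a sum of 6182. U9-KO female 3 had the highest sums of the females for adipocyte genes (867667) and red cell and platelet genes (42207). The other ovary-rich library was that of U9-KO female 1, the highest mouse for 4 members.

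**Figure D3:**
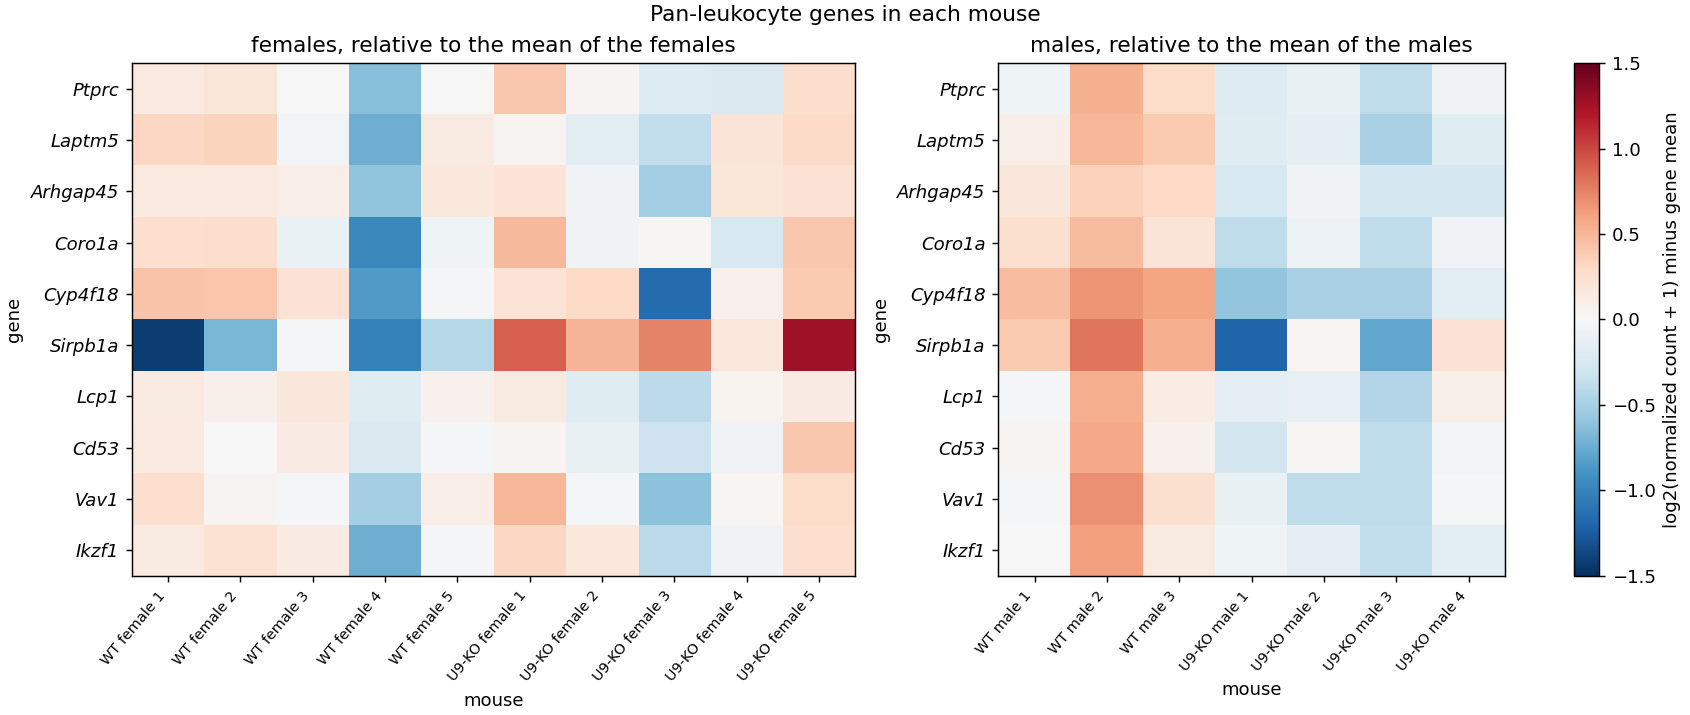
Log2(normalized count + 1) of each pan-leukocyte gene in each mouse minus the gene's mean over the mice of that sex (colour), for females on the left and males on the right. The WT male 2 column is red for all 10 genes, and the WT female 4 column is blue for all 10.

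Deviations from the group mean were compared with those of *Ptprc*, so that a difference between the genotypes does not enter. Over the 10 females Pearson's r was 0.96 for *Coro1a*, 0.94 for *Ikzf1*, 0.85 for *Vav1*, 0.80 for *Arhgap45*, 0.79 for *Laptm5* and *Cyp4f18*, 0.72 for *Lcp1*, 0.70 for *Cd53* and 0.35 for *Sirpb1a*. Over the 7 males it was 0.93 for *Laptm5* and *Lcp1*, 0.87 for *Ikzf1* and *Vav1*, 0.85 for *Cd53*, 0.69 for *Coro1a*, 0.65 for *Arhgap45*, 0.60 for *Cyp4f18* and 0.54 for *Sirpb1a*. Leaving out WT female 4 and U9-KO female 1, the female mice farthest from the median of *Ptprc*, the r of the female values themselves went from 0.95 to 0.84 for *Coro1a* and from 0.36 to -0.16 for *Sirpb1a*. These points share library, scaling and tissue makeup, and the values are a description.

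Among 12489 genes with a mean of at least 100 in females, the 5 outside the list whose log2 values followed the members' mean z-score most closely were *Pik3cg* (r = 0.96), *Akna* (0.96), *Dennd1c* (0.96), *Nfam1* (0.95) and *AI467606* (0.94), over 10 mice. Among 11743 genes in males they were *Inpp5d* (r = 0.99), *Akna* (0.99), *Pld4* (0.99), *Sash3* (0.98) and *Nsmf* (0.98), over 7 mice. *Akna* was named in both sexes. Its normalized count was between 296 and 508 in females, and in males between 365 and 606.

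A list of 32 other leukocyte-wide genes, with adhesion molecules, cytoskeletal regulators and adaptors of leukocytes, was measured beside the members. It was chosen with earlier results of these data known. Its median level per mouse followed that of the members (Pearson's r = 0.98 over 10 females and 0.99 over 7 males). Its values are therefore not independent of theirs. In males all 32 had lower values in U9-KO mice, with a median log2 fold change of -0.43, and 31 did so without WT male 2 (median -0.25). In females 21 of the 32 were higher with a median of 0.05, and 5 were higher without the 2 ovary-rich libraries (median -0.13). The 3 most abundant were *Lsp1*, an actin-binding protein, *Itgb2*, the beta-2 integrin, and *Nckap1l*, a subunit of the WAVE complex. *Lsp1*, the most abundant, was between 1019 and 1961 in WT and 1125 and 1492 in U9-KO males, with a log2 fold change of -0.22 (SE 0.19). In males *Itgb2* ranged from 898 to 1889 in WT and from 776 to 1158 in U9-KO mice (log2 fold change -0.46, SE 0.22), and *Nckap1l* from 691 to 1319 and from 586 to 819 (-0.42, SE 0.19). None of the 32 passed the adjusted test in either sex, and over all genes tested the median log2 fold change was 0.00 in both.

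Genes that act with CD45, the Src-family kinases, their regulator *Csk* and their adaptors, had lower values in U9-KO males for 19 of 20 genes (median -0.34), and 18 without WT male 2 (median -0.25), but the 3 most abundant of them, which many cell types use, were close to level. *Cbl*, a ubiquitin ligase, had a male log2 fold change of 0.12 (SE 0.11), *Grb2*, an adaptor, -0.04 (SE 0.08) and *Csk* -0.17 (SE 0.09). The members' broadly expressed relatives, such as *Laptm4a*, *Arhgap29* and the tetraspanin gene *Cd151*, gave medians of -0.03 in females and -0.04 in males over 24 genes. *Laptm4a*, for which WT males had between 9033 and 9868 and U9-KO males between 8826 and 9679, had a log2 fold change of 0.00 (SE 0.08). Of these lists 0 genes passed the adjusted test.

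Markers of single leukocyte types were also mostly lower in U9-KO males. For macrophages 15 of 16 were lower, with a median log2 fold change of -0.36, and 12 without WT male 2 (median -0.17). All 16 T cell genes were lower (median -0.71), and 15 without WT male 2 (median -0.91). So were 12 of 14 B cell genes (median -0.85, and -0.43 without WT male 2), 9 of 10 dendritic cell genes (median -0.28, and -0.33) and 7 of 8 mast cell genes (median -0.37, and -0.22). Of the natural killer and innate lymphoid cell genes 7 of 10 were lower (median -0.12, and -0.34 without WT male 2). Lipid-associated macrophage genes had 7 of 10 lower (median -0.25, and -0.02). For monocytes and neutrophils 10 of 11 were lower (median -0.35, and -0.30), and for plasma cells 9 of 10 (median -0.50, and -0.26). In females 15 of 16 macrophage genes were lower in U9-KO mice (median -0.15), and 14 without the ovary-rich libraries (median -0.27). With all females, 13 of 16 T cell genes were higher (median 0.25) and 11 of 14 B cell genes (median 0.12). Without the ovary-rich libraries 9 of 16 T cell genes were higher (median 0.03), and the B cell genes turned, with 3 higher and 11 lower (median -0.25). Among cells of the fat that are not leukocytes, adipocyte genes had medians of 0.14 in females and 0.10 in males, endothelial genes 0.18 and -0.14, and adipocyte progenitor genes -0.02 and -0.17. In U9-KO males 2 of 12 adipocyte, 8 of 10 endothelial and 8 of 10 progenitor genes were lower. In U9-KO females 4, 0 and 6 of them were lower. Without WT male 2 the male medians of these 3 lists were -0.04, -0.07 and 0.00, with 7, 8 and 5 genes lower. Without the ovary-rich libraries the progenitor median in females was -0.12. Red cell and platelet genes, which mark blood in the tissue, had lower values in U9-KO males for 10 of 10 genes (median -0.45, and -0.65 without WT male 2), and 6 of 9 were higher in U9-KO females (median 0.37, and 0.60 without the ovary-rich libraries). They summed to between 67294 and 123273 in WT and 49014 and 98809 in U9-KO males, and WT male 2, highest for the members, had the lowest of the WT sums. Their part in the members' values was not tested. Macrophage genes summed to between 27633 and 45546 in WT and 23628 and 29521 in U9-KO males, T cell genes to between 526 and 883 and 363 and 592, and B cell genes to between 15883 and 26463 and 18525 and 31441, the last set mostly by *Ighm*. The part of each cell type in the members' values was not tested. No gene of these lists passed the adjusted test.

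**Figure D4:**
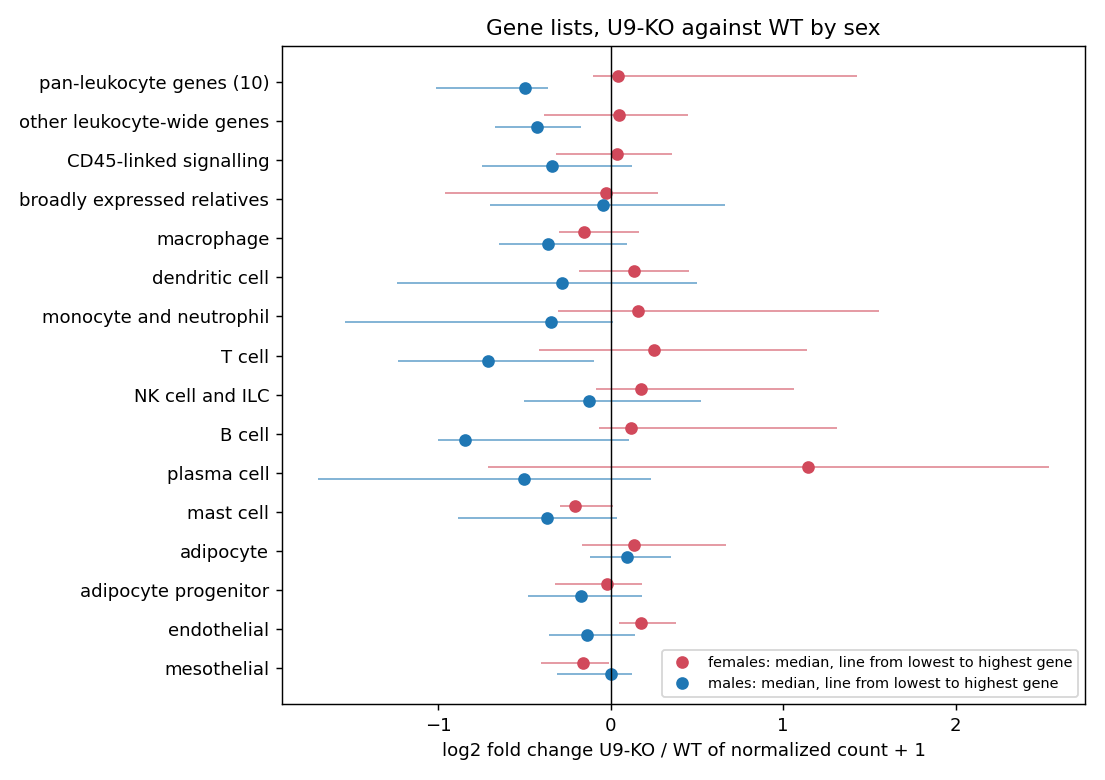
Log2 fold change of U9-KO over WT of the normalized count plus 1 (horizontal axis) for lists of genes in females (red) and males (blue). Points are medians over the genes of a list and lines run from its lowest to its highest gene, and in males the medians of the pan-leukocyte genes (-0.50) and of the other leukocyte-wide genes (-0.43) lie left of that of their broadly expressed relatives (-0.04).

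The contrast of males with females was not part of how the genes were chosen, but it uses the same WT and U9-KO males whose difference was, so it is not independent of that choice. Choosing genes with that male difference in view can favour high values in WT males and low values in U9-KO males. The members' adjusted p-values between the sexes are therefore given as a description. For this contrast the values were rescaled over all 17 libraries by the median of ratios, because the deposited values appeared to be scaled in each sex separately. In WT pWAT all 10 members were higher in males, with a median log2 difference of 0.70, and 7 passed limma's test with Benjamini-Hochberg adjustment over all genes. Over all 23646 genes tested, 8.6% were called higher in males and 12.5% lower.

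*Ikzf1* had the largest of these differences, with rescaled values of 264 ± 60.7 in WT females (SD, n = 5) and 514 ± 123 in WT males (SD, n = 3) and a log2 difference of 0.97 (SE 0.23, adjusted p = 0.016 in limma). *Coro1a* was at 641 ± 186 in females and 1166 ± 137 in males (0.92, SE 0.25, adjusted p = 0.0282), and *Laptm5* at 2566 ± 661 and 4467 ± 650 (0.84, SE 0.23, adjusted p = 0.0276). In these 3 genes each WT male exceeded each WT female. *Vav1* (0.74), *Lcp1* (0.71), *Cd53* (0.69) and *Ptprc* (0.66) were the other members called. *Cyp4f18*, 0.68 (SE 0.29), *Arhgap45*, 0.28 (SE 0.18), and *Sirpb1a*, 0.17 (SE 0.40), were not. Without WT male 2, *Lcp1* and *Cd53* remained called, and the median was 0.54. Without WT male 3 or WT female 3 there were 3 members called, and without WT female 5 there were 4, while leaving out WT female 4 left 7. On the values as deposited, which lower every male value relative to the females, 5 were called and the median was 0.58.

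In U9-KO pWAT the median log2 difference was 0.14, with 7 members higher in males and 3 lower. For each gene, the change of this difference from WT to U9-KO mice restates the interaction of sex and genotype given above, apart from the rescaling. It is not a separate result. *Lcp1* was at 1657 ± 245 rescaled counts in males (SD, n = 4) and 1219 ± 190 in females (SD, n = 5), a log2 difference of 0.45 (SE 0.14, adjusted p = 0.0357 in limma). *Sirpb1a* was lower in males, 4.70 ± 2.48 against 25.5 ± 7.63, with a log2 difference of -2.28 (SE 0.39, adjusted p = 0.0018 in limma). The call of *Lcp1* was lost without U9-KO female 2 or U9-KO male 1, 2 or 4 and on the values as deposited (0.33). Without U9-KO female 3, *Arhgap45* (-0.36) and *Cyp4f18* (-0.54) were also called, both lower in males, in a fit that called 7685 of 23526 genes. *Ikzf1* (0.47) was called without U9-KO female 1. Over all 23882 genes tested, 10.1% were called higher in males and 15.2% lower.

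**Figure D5:**
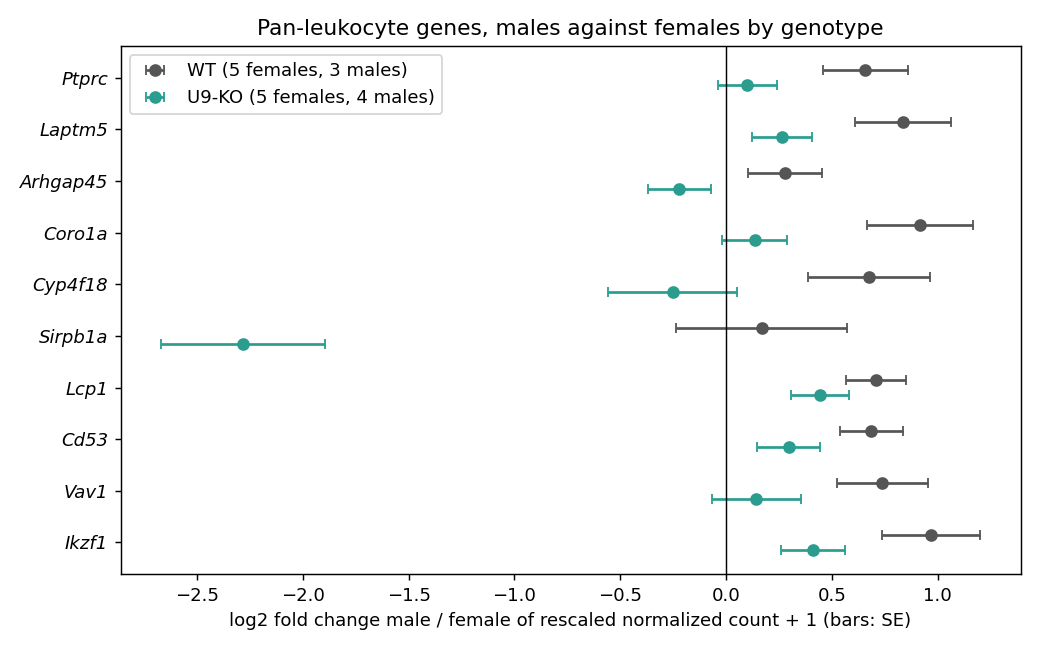
Log2 difference of males over females of the rescaled normalized count plus 1 (horizontal axis) for each pan-leukocyte gene in WT (grey, 5 females and 3 males) and U9-KO mice (green, 5 females and 4 males), with bars of 1 SE. The WT values run from 0.17 to 0.97 and the U9-KO values from -2.28 to 0.45, with *Sirpb1a* in U9-KO mice far to the left.

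Of the 32 other leukocyte-wide genes, 20 were called higher and 1 lower in WT males (median log2 difference 0.71), and 5 higher and 2 lower in U9-KO males (median 0.23). Macrophage genes were higher in males of both genotypes, with 12 of 16 called higher and 0 lower in WT (median 0.88) and 12 of 16 in U9-KO mice (median 0.56). The broadly expressed relatives had 4 genes called higher and 5 lower in WT males, with a median of -0.06. Of the red cell and platelet genes, 7 of 9 were called higher and 1 lower in WT males (median 2.65) and 6 of 10 higher and 1 lower in U9-KO males (median 1.70), and their part in the members' sex difference was not tested. B cell genes had medians of -0.23 in WT and -1.34 in U9-KO mice, so the leukocyte markers did not all follow the members. Of all genes called between the sexes, 40.8% were higher in males in WT and 39.8% in U9-KO mice, and 25.2% and 24.4% on the values as deposited, where the median log2 difference of all WT genes was -0.16 in place of -0.04.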

How the data were processed

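RNA was sequenced from whole pWAT of 17 mice on an Illumina NovaSeq with paired reads of 150 bases and a stranded protocol. Per the methods and the submitters' processing notes, the authors trimmed reads with trim_galore, aligned them with STAR 2.7.3a to GRCm38, counted them with summarizeOverlaps in Union mode and used DESeq2 1.28.1; the annotation release is not given in the sources used here. What the authors deposited is a score for each gene, namely read counts divided by a size factor and rounded, apparently with the sexes scaled apart. Raw counts were not used here. A series table that repeats the single-library values was not used, and 2 male columns with other replicate numbers were read by their labels.

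GENCODE M21 named 55141 of 55401 identifiers. Limma 3.58.1 (R 4.3.3), with a mean-variance trend, was fitted to log2(normalized count + 1) over genes with a total of at least 10, with Benjamini-Hochberg adjustment over all genes and a threshold of 0.05, in each sex, for the interaction, and between sexes after rescaling by median of ratios. The fits were tested on simulated counts drawn independently for each mouse with a single dispersion, in which only well-expressed genes were changed. That check does not cover tissue makeup shared by the genes of a mouse, or genes as low as *Sirpb1a*. The members, the lists of genes and the comparisons were chosen with earlier results of these data known. Named genes were the members, *U90926*, the 3 most abundant genes of a list and the 5 genes closest to the members' mean in each sex. *Ly6g*, *Cd3e*, *Sirpb1b* and *Sirpb1c* were added as checks after their values were seen. Tables were handled in Python 3.11.15 with pandas 2.3.3 and numpy 2.4.6. Alternatives were another pseudocount and filters, other scalings, a replicate block, all mice in 1 fit and leaving out each mouse. Fits without the trend and without the ovary-rich libraries were added after seeing the data.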

Additional observations from a re-analysis of the deposited data

Results flagged for a closer look

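In 4 of 30 sets of a gene and a group of 4 or 5 mice, a mouse stood far from the rest of its group by Dixon's criterion at the 95% level, where chance gives about 1.5. *Ptprc* was 654 in WT female 4 against 1020 to 1156 in the other WT females. *Arhgap45* was 879 in the same mouse, against 1425 to 1490, and WT female 4 is one of the libraries rich in ovary transcripts. *Laptm5* was 2405 in U9-KO male 3, where the rest of its group lay between 2961 and 3058. *Arhgap45* was 1187 in U9-KO male 2, above 1018 to 1041 in its group.

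*Sirpb1a* was flagged because its genotype difference ran in opposite directions in the sexes, with all U9-KO females above all WT females and all U9-KO males below all WT males. The male minus the female log2 fold change was -2.44, and the gene was not called in the interaction over all genes. Its values are low, and reads of its near copies may be included.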

How the results depend on the processing

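The deposited values give no read depth, so the precision of low genes such as *Sirpb1a* cannot be stated. Between U9-KO and WT mice, the count of genes called stayed 0 except for 1 gene in females and 1 in males without the mean-variance trend, and the interaction called 1 gene with no filter on low values. With each mouse left out, 0 genes were called in females and 0 to 71 in males. The 71 arose without WT male 1, out of 21467 genes tested there. Members lower in U9-KO males stayed at 10, with medians from -0.58 to -0.38, and members higher in U9-KO females ran from 2 to 9, with 1 without the ovary-rich libraries. Between the sexes, leaving out each mouse gave 2652 to 5465 genes and 2 to 7 members called in WT, and 4054 to 7685 genes and 1 to 4 members in U9-KO mice. One member of U9-KO mice was called with at least 10 in every mouse (*Lcp1*, since *Sirpb1a* is not tested there), and 1 on the values as deposited (*Sirpb1a*). Signs of members that were not called turned for *Ptprc* in U9-KO mice on the values as deposited (-0.0137), for *Sirpb1a* in WT mice without WT female 1 (-0.0097 to 0.345 over the mice left out) and for *Vav1* in U9-KO mice without U9-KO female 3 (-0.0235 to 0.259). The causes were not tested.

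Replicate numbers were shared by the groups, but deviations of same-numbered mice correlated between -0.435 and 0.124 in females and between -0.124 and 0.00993 in males, so the numbers were not taken to pair mice. With the replicate number as a block, 1761 genes and 1 member were called between WT sexes, and 3468 genes between U9-KO sexes. The block moved the median of the members by less than their spread in every comparison.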
